A study of Homo sapiens with 9 samples.

Results

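The ZIP zinc importers are the proteins of the SLC39 gene family. The 10 genes followed here (SLC39A1, SLC39A3, SLC39A4, SLC39A6, SLC39A7, SLC39A8, SLC39A9, SLC39A10, SLC39A11 and SLC39A13) were taken by symbol from a table of 57766 genes, which lists 14 SLC39 genes in all. They were followed in the HEK293 Freestyle line, human embryonic kidney cells adapted to suspension, by sequencing of polyadenylated RNA after 36 h in 1 of 3 media. The media, with 3 libraries each, were zinc-depleted Freestyle medium (depleted), such medium repleted with Zn(II) (repleted) and untreated Freestyle medium (full). All cells were first washed and brought to 4000000 cells/mL in saline, and the labels call the libraries biological triplicates. All groups are 1 cell line in culture, which limits them as a model of zinc starvation in tissue.

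ZIP proteins carry zinc into the cytosol, either from outside the cell or from the lumen of an organelle. The membrane location given below for each ZIP gene is a background grouping and was not measured here. The SLC30 or ZnT proteins carry it the other way, and metallothioneins hold it in the cytosol. Most of the ZIP genes followed here belong to the LIV-1 subfamily. Zinc-sensing by the transcription factor MTF1 is known to drive metallothionein genes and SLC30A1 when zinc is plentiful. In the mouse, MTF1 is also known as a repressor of Slc39a10.

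In zinc-depleted medium, most ZIP genes had more transcript, but the changes were unequal and some went the other way. SLC39A10 of the plasma membrane averaged 49.9 ± 1.22 RPKM in depleted medium, 14.9 ± 0.389 RPKM in repleted medium and 17.2 ± 0.645 RPKM in full medium. SLC39A4, also of the plasma membrane, averaged 11.4 ± 0.96 RPKM in depleted, 31.7 ± 1.95 RPKM in repleted and 32.1 ± 1.94 RPKM in full medium (SD, n = 3 each). RPKM is the read count scaled by gene length and library total, so levels of different genes can be set side by side. All 10 genes passed the filter on low values, at least 1 RPKM in at least 3 libraries.

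Promoter sequence is shown for 3 genes because MTF1 binds metal response elements, whose core was searched as TGCACNC and TGCGCNC on both strands. Windows of 300 bases around each gene's annotated start came from RefSeq on build GRCh38.p14, and 9 of the 10 ZIP genes had at least 1 (15 windows in all). SLC39A4 had no window, so its promoter was not searched. Lower-case letters are the window, 5′ to 3′ on the gene's strand, and capitals mark every match on either strand. SLC39A10 is shown as the ZIP gene with the largest rise, SLC39A7 as the next, and MT2A as a metallothionein whose level moved the other way. For a gene with more than 1 window, the window with the most matches is printed.
SLC39A10, chr2:195656976-195657275, plus strand: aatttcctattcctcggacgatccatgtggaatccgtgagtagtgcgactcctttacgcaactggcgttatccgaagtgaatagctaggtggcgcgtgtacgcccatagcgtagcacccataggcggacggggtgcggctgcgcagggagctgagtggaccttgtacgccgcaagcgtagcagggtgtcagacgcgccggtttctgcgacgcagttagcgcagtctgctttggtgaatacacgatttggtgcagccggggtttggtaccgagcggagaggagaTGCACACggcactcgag
SLC39A7, chr6:33200617-33200916, plus strand: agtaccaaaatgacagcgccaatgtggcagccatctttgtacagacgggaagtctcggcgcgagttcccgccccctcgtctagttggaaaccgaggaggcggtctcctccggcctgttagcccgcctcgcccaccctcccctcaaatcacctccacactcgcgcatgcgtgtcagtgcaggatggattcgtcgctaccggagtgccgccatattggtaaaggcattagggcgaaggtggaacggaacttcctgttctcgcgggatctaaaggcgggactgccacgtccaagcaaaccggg
MT2A, chr16:56608334-56608633, plus strand: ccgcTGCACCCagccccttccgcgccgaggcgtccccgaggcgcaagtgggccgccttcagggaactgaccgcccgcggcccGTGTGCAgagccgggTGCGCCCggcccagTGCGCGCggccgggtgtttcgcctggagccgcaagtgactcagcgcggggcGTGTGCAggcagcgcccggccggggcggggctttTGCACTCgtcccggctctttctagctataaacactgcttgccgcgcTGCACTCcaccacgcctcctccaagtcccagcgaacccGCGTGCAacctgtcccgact

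The SLC39A10 window held 1 match, TGCACAC on the plus strand at bases 284 to 290 counted from 1 at the window's 5′ end. A further SLC39A10 window, upstream at chr2:195656708-195657007, held 0 matches. The SLC39A7 window held 0 matches and the MT2A window 8, with 0 overlaps between matches. The windows of MT1X and SLC30A1, which are not printed, held 4 and 2 matches. Among the 35116 windows of the same length in the table, 29.6% held at least 1 match and 0.16% held 5 or more. Of the 15 ZIP windows, 6 held a match, 1 each for SLC39A1, SLC39A3, SLC39A6, SLC39A8, SLC39A10 and SLC39A13. With so few windows, nothing is read from that share. A match is a run of letters and not a measured binding site.

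As a check of the label, VIM, KRT8 and KRT18, which HEK293 cells are known to express, were present in all 9 libraries but moved with the medium. VIM averaged 665 RPKM in depleted, 585 RPKM in repleted and 577 RPKM in full medium and was called higher in depleted against full medium (log2 0.21, limma adjusted p = 2.66e-05). KRT8 averaged 90.4 RPKM in depleted, 124 RPKM in repleted and 135 RPKM in full medium (log2 -0.57, limma adjusted p = 7.43e-07), and KRT18 was also called lower (log2 -0.38, limma adjusted p = 8e-06). The part of these shifts in the results was not tested. Of the 10 markers of other cell types that were looked up (leukocyte, hepatocyte, beta cell, erythroid, endothelial, muscle and kidney tubule genes), 0 passed the filter on low values. INS, HBB and UMOD were listed at 0 in every library, and PECAM1 had no row under that symbol. The neurofilament gene NEFL, also a marker of this line, had 6.14, 6.89 and 6.57 RPKM in depleted, 31.7, 32 and 32.1 RPKM in repleted and 32.4, 33.2 and 29.9 RPKM in full libraries. The table gives no counts, and the spacing of low values put the depth at an estimated 16600000 to 23500000 reads per library. In bulk RNA, fewer cells expressing a gene and less RNA per cell cannot be told apart. The depleted libraries stood apart across the 15774 genes tested, with Pearson's r of 0.9356 to 0.941 against the full libraries, compared with 0.9819 to 0.9858 between repleted and full libraries, values across genes that are not independent replicates.

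In depleted against full medium, the comparison for zinc starvation, 7 of the 10 ZIP genes were higher, 2 were lower and 1 was not called. The test was limma on the log2(RPKM + 1) values with Benjamini-Hochberg adjustment over all 15774 genes and a threshold of 0.05, and the fold changes of weakly expressed genes are understated on this scale. The background over all genes was 29.8% higher and 31.2% lower, together 60.9%. The median log2 difference was 0.32 over the ZIP genes and 8e-04 over all genes tested. Apart from SLC39A10 and SLC39A4, the called ZIP genes had log2 differences larger than in 16.7% (SLC39A11) to 90.9% (SLC39A7) of all genes tested. In depleted against repleted medium, which sets depleted medium against the same kind of medium with zinc, 6 were higher, 2 lower and 2 not called, against a background of 29.5% higher and 31.2% lower (60.7% in all). The median log2 difference was 0.28 over the ZIP genes and -0.01 over all genes. By the libraries themselves, 8 ZIP genes were higher and 2 lower in every depleted library than in any full one, where 67.6% of all genes did not overlap (33.4% higher and 34.3% lower). Against the repleted libraries 6 were higher and 2 lower without overlap, where 65.2% of all genes did not overlap (31.7% higher and 33.4% lower). Both comparisons use the same depleted libraries, so they are not independent of each other.

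**Figure D1:**
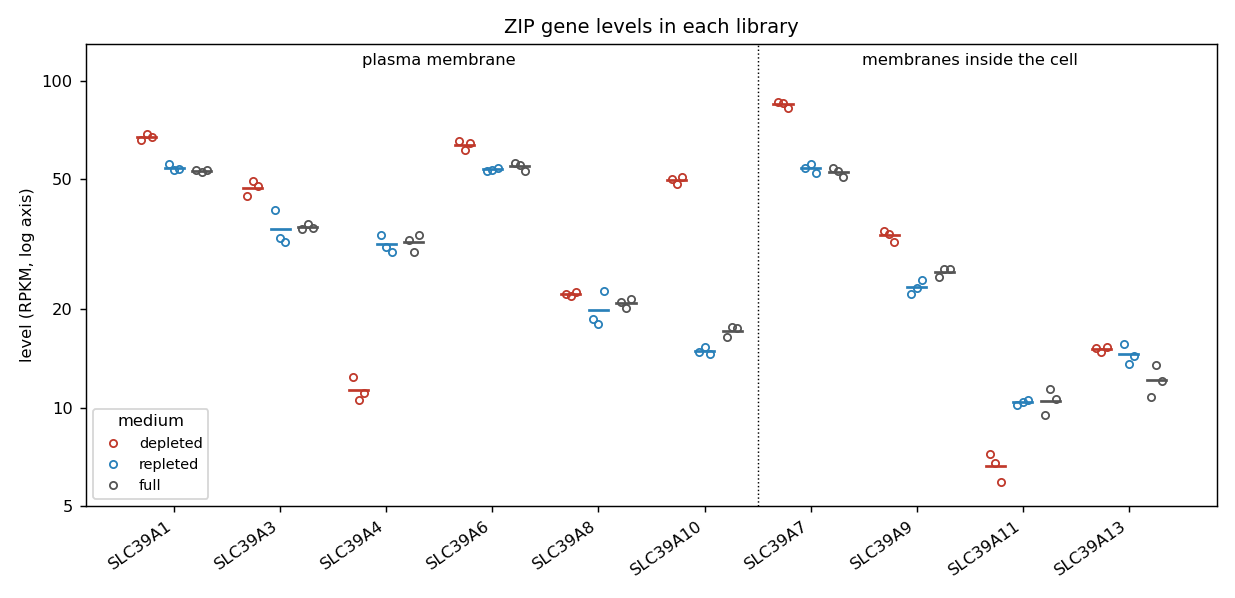
Level of each ZIP gene in each library (RPKM, log axis), with circles for libraries and bars for the mean of 3, in depleted, repleted and full medium from left to right. SLC39A10 is far higher in depleted medium (48.6 to 50.9 RPKM) than in the other media (14.6 to 17.6 RPKM), and SLC39A4 far lower (10.6 to 12.4 against 30 to 33.8 RPKM).

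At the plasma membrane, SLC39A10 had the largest rise of the 10 genes. ZIP10 forms a complex with ZIP6, and both share ancestry with the prion protein. SLC39A10 (ENSG00000196950) had 50.3, 48.6 and 50.9 RPKM in depleted libraries, 14.8, 15.4 and 14.6 RPKM in repleted libraries and 16.5, 17.6 and 17.5 RPKM in full libraries. Every depleted library lay above every other library, by a wide gap. The ratio of means was 2.9 over full and 3.35 over repleted medium. On the log2 scale, depleted minus full was 1.48 (SE 0.05, 95% interval 1.38 to 1.59, limma adjusted p = 1.55e-08), larger than in 98.9% of all genes tested. Depleted minus repleted was 1.68 (SE 0.05, 95% interval 1.57 to 1.78, limma adjusted p = 7.48e-09), larger than in 99.3% of them. The window printed above for this gene holds the single TGCACAC match. At least 1 match was held by 29.6% of all windows, and the part of this match in the rise was not tested.

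SLC39A6, which encodes the partner ZIP6, changed far less than SLC39A10. SLC39A6 (ENSG00000141424) had 65.6, 61.6 and 64.6 RPKM in depleted, 53.2, 53.6 and 54.1 RPKM in repleted and 56.1, 55.3 and 53 RPKM in full libraries. The depleted libraries were highest, without overlap, but the ratio of means was only 1.17 over full and 1.19 over repleted medium. It rose by 0.22 on the log2 scale against full (SE 0.04, limma adjusted p = 0.000756) and by 0.25 against repleted medium (limma adjusted p = 0.000339). Within each library, the level of SLC39A10 divided by that of SLC39A6 was 0.767, 0.788 and 0.788 in depleted libraries and 0.294, 0.319 and 0.33 in full libraries. Since SLC39A10 has the largest rise of the 10 genes, this ratio is a description, with no test.

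SLC39A1 and SLC39A3 rose by modest amounts. ZIP1 and ZIP3 are related importers of the ZIPII subfamily, and ZIP1 is expressed in most cell types. SLC39A1 (ENSG00000143570) had 66, 68.9 and 67.4 RPKM in depleted, 55.6, 53.3 and 53.8 RPKM in repleted and 53.5, 52.7 and 53.4 RPKM in full libraries, with the depleted libraries above all others. Its log2 difference was 0.34 against full (SE 0.03, limma adjusted p = 2.16e-05) and 0.31 against repleted medium (limma adjusted p = 3.72e-05). SLC39A3 (ENSG00000141873) had 44.5, 49.5 and 47.7 RPKM in depleted, 40.5, 33.2 and 32.2 RPKM in repleted and 35.2, 36.5 and 35.5 RPKM in full libraries. Repleted replicate 1 was the highest of the libraries with zinc but stayed below the depleted ones. The log2 difference of SLC39A3 was 0.39 against full (SE 0.08, limma adjusted p = 0.00198) and 0.42 against repleted medium (limma adjusted p = 0.00137).

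SLC39A4 fell. ZIP4 is the importer of dietary zinc in the gut, and its loss causes the zinc deficiency disease acrodermatitis enteropathica. SLC39A4 (ENSG00000147804) had 12.4, 10.6 and 11.1 RPKM in depleted, 33.8, 31.1 and 30 RPKM in repleted and 32.7, 30 and 33.7 RPKM in full libraries. The depleted libraries were the lowest, without overlap, while the repleted and full libraries overlapped. Means were 2.83-fold lower in depleted than in full medium and 2.79-fold lower than in repleted medium. On the log2 scale, depleted minus full was -1.42 (SE 0.07, 95% interval -1.59 to -1.26, limma adjusted p = 2.53e-07) and depleted minus repleted was -1.40 (limma adjusted p = 2.72e-07). Only 2.7% of all genes tested had a lower value than SLC39A4 in the first comparison. The length deposited for this gene is 710.61 nucleotides, the shortest of the 10 genes, with 9 transcripts listed. How that length was derived from the transcripts is not stated. An estimated 140 to 510 reads per library stand behind the values of SLC39A4.

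SLC39A8 was not called in either comparison. ZIP8 carries manganese and cadmium as well as zinc. SLC39A8 (ENSG00000138821) had 22.3, 22.1 and 22.7 RPKM in depleted, 18.7, 18.1 and 22.9 RPKM in repleted and 21.1, 20.3 and 21.5 RPKM in full libraries. The depleted libraries lay just above the full ones, and repleted replicate 3 lay above all of them. The log2 difference was 0.09 against full medium (95% interval -0.09 to 0.27, limma adjusted p = 0.357) and 0.17 against repleted medium (95% interval -0.01 to 0.34, limma adjusted p = 0.092). Against repleted medium it passed the test without repleted replicate 3 (log2 0.27, limma adjusted p = 0.002) and after median centring of the libraries (log2 0.22, limma adjusted p = 0.0489).

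**Figure D2:**
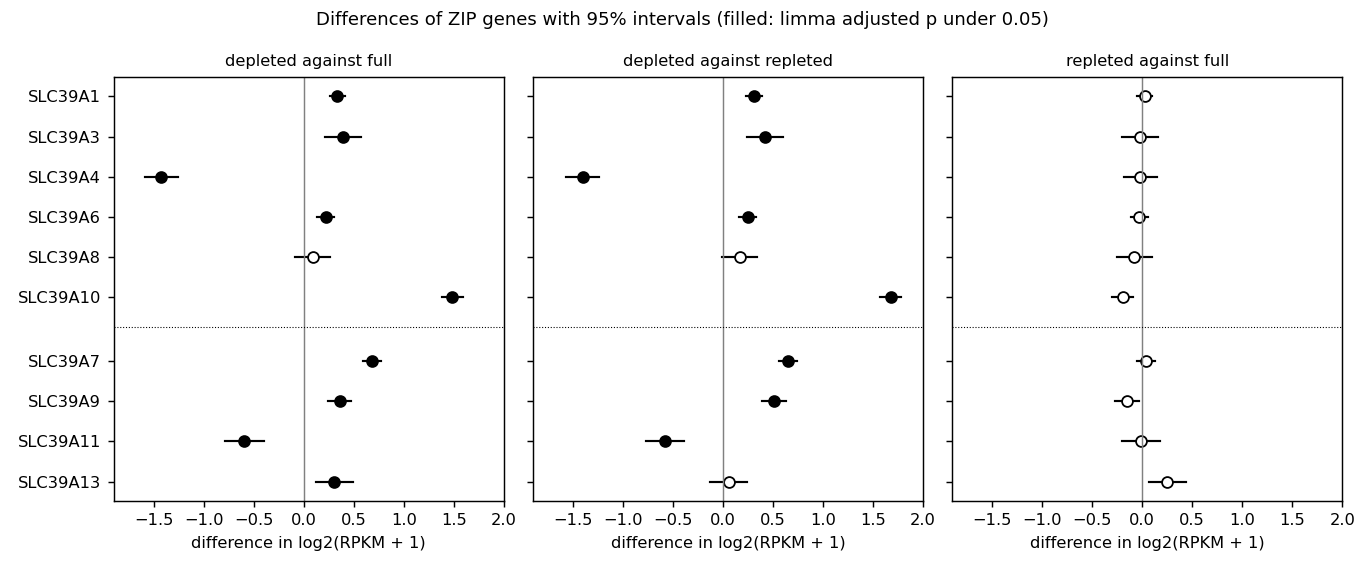
Difference in log2(RPKM + 1) of each ZIP gene with its 95% interval, in a panel for each pair of media. Genes above the dotted line are grouped as plasma membrane and those below it as inside the cell, a background grouping. Filled circles passed limma at an adjusted p under 0.05: 9 and 8 genes in the depleted comparisons and 0 in the panel of repleted against full medium.

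Among the ZIP proteins of inner membranes, SLC39A7 had the largest change. ZIP7 releases zinc from the endoplasmic reticulum and is activated by the kinase CK2. SLC39A7 (ENSG00000112473) had 86.4, 85.9 and 83 RPKM in depleted, 54.1, 55.8 and 52.2 RPKM in repleted and 54.4, 53.1 and 50.8 RPKM in full libraries. Depleted libraries were well above the others, which overlapped each other. The ratio of means was 1.61 over full and 1.57 over repleted medium. Its log2 difference was 0.68 against full (SE 0.04, 95% interval 0.59 to 0.77, limma adjusted p = 5.92e-07) and 0.65 against repleted medium (limma adjusted p = 8.34e-07). The subunit genes of CK2 were not called in depleted against full medium, with log2 differences of 0.01 for CSNK2A1, 0.07 for CSNK2A2 and 0.05 for CSNK2B, the last of which was called against repleted medium (log2 0.1, limma adjusted p = 0.0206).

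SLC39A9, whose product sits mainly in the Golgi, also rose. SLC39A9 (ENSG00000029364) had 34.9, 34.1 and 32.2 RPKM in depleted, 22.3, 23.2 and 24.6 RPKM in repleted and 25.1, 26.6 and 26.6 RPKM in full libraries. The 3 groups did not overlap, with depleted highest and repleted lowest. The log2 difference was 0.36 against full (SE 0.05, limma adjusted p = 0.000246) and 0.51 against repleted medium (limma adjusted p = 2.3e-05).

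SLC39A11, the only member of the gufA subfamily and found at the Golgi and in the nucleus, fell. SLC39A11 (ENSG00000133195) had 7.21, 6.76 and 5.92 RPKM in depleted, 10.23, 10.42 and 10.54 RPKM in repleted and 9.48, 11.4 and 10.7 RPKM in full libraries. It had the lowest mean level of the 10 genes in all 3 media, though in full medium its range overlapped that of SLC39A13 (10.8 to 13.5 RPKM). SLC39A11 was lower in the depleted libraries without overlap. Its log2 difference was -0.59 against full medium (SE 0.09, limma adjusted p = 0.00023) and -0.58 against repleted medium (limma adjusted p = 0.000258).

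SLC39A13 differed from the other called genes in that it was called against full medium but not against repleted medium. ZIP13 acts at the Golgi and on vesicles, and its loss causes a connective tissue disorder of the Ehlers-Danlos group. SLC39A13 (ENSG00000165915) had 15.2, 14.8 and 15.4 RPKM in depleted, 15.7, 13.6 and 14.4 RPKM in repleted and 10.8, 13.5 and 12.1 RPKM in full libraries. Depleted and repleted libraries overlapped, and both lay above the full ones. The log2 difference of depleted minus full was 0.31 (SE 0.08, 95% interval 0.12 to 0.49, limma adjusted p = 0.00912) and of depleted minus repleted 0.06 (95% interval -0.13 to 0.24, limma adjusted p = 0.579). Repleted minus full was 0.25 (95% interval 0.07 to 0.43), which did not pass the test (limma adjusted p = 0.527), so the 2 depleted comparisons were not shown to differ for this gene.

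Repleted against full medium asks how far zinc added back brought each gene to its level in untreated medium. In this comparison 0 of the 10 ZIP genes were called, against 0.0317% of all genes (5 of 15774, all lower in repleted medium). At an unadjusted limma p under 0.05 there were 3 ZIP genes, against 7.76% of all genes tested. They were SLC39A13, described above, SLC39A10 and SLC39A9, and for these 3 the libraries did not overlap (1 higher and 2 lower, against 5.39% and 7% of all genes, together 12.4%). SLC39A10 was lower in all 3 repleted libraries than in any full library, with a log2 difference of -0.19 (95% interval -0.30 to -0.09, limma adjusted p = 0.36). SLC39A9 was lower likewise, with a log2 difference of -0.15 (95% interval -0.27 to -0.04, limma adjusted p = 0.544). For the other 7 genes the log2 difference lay between -0.08 and 0.03, and their 95% intervals between -0.26 and 0.18.

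Zinc in the repleted medium closed most or all of the gap in log2 level between depleted and full medium for 8 of the 9 genes called there. The share of the gap closed was 98.6% for SLC39A4, 98.2% for SLC39A11, 95% for SLC39A7, 92.2% for SLC39A1, 106.3% for SLC39A3, 113% for SLC39A10, 113.3% for SLC39A6 and 142.7% for SLC39A9, where values above 100% mean that the repleted mean passed beyond the full mean. For SLC39A13 it was 18.2%. These shares are descriptions with no test. In contrast to these ZIP genes, MT2A and MT1F were called lower in repleted than in full medium. MT2A is the most expressed metallothionein in this table. It had 93.6, 90.1 and 96.7 RPKM in repleted libraries and 188, 201 and 184 RPKM in full libraries (log2 -1.02, limma adjusted p = 0.00114). MT1F differed by a log2 of -1.23 (limma adjusted p = 0.0382). MT1X (log2 -1.20) and SLC30A1 (log2 -0.45) were also lower but not called, each with a limma adjusted p of 0.0596. Over the alternative settings, 1 to 3 genes of the list of metallothioneins and MTF1 were called lower.

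The order of the ZIP genes by level changed between media. In full medium SLC39A6 (54.8 RPKM), SLC39A1 (53.2 RPKM) and SLC39A7 (52.8 RPKM) led, with overlapping neighbours. SLC39A10 (17.2 RPKM) ranked 8 of 10, below SLC39A4 (32.1 RPKM). In depleted medium SLC39A7 (85.1 RPKM) led alone and SLC39A10 (49.9 RPKM) ranked 4 of 10, its range overlapping that of SLC39A3 (47.2 RPKM). SLC39A4 (11.4 RPKM) then ranked 9 of 10, above SLC39A11 (6.63 RPKM) and below SLC39A13 (15.2 RPKM), with no overlap on either side. In repleted medium the order was close to that in full medium, with SLC39A1, SLC39A7 and SLC39A6 between 53.7 and 54.2 RPKM and SLC39A10 (14.9 RPKM) level with SLC39A13 (14.6 RPKM).

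The summed level of the 10 genes was 405, 403 and 401 RPKM in depleted libraries, 319, 308 and 309 RPKM in repleted libraries and 315, 317 and 315 RPKM in full libraries. Depleted libraries were higher, and the others overlapped. SLC39A10 made up 12.4% ± 0.322 of the sum in depleted, 4.78% ± 0.187 in repleted and 5.45% ± 0.193 in full medium (SD, n = 3 each). SLC39A4 made up 2.82% ± 0.226 of it in depleted, 10.1% ± 0.451 in repleted and 10.2% ± 0.655 in full medium. Without SLC39A10 the sum was 353 ± 2.51 RPKM in depleted, 297 ± 6.24 RPKM in repleted and 298 ± 1 RPKM in full medium. By location, the 6 plasma membrane genes summed to 262 ± 1.88 RPKM in depleted, 210 ± 6.19 RPKM in repleted and 214 ± 1.44 RPKM in full medium, and the 4 genes of inner membranes to 140.7 ± 3.7 RPKM in depleted, 102.4 ± 0.7 RPKM in repleted and 101.5 ± 2.7 RPKM in full medium. These sums are descriptions of the chosen genes, with no test.

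**Figure D3:**
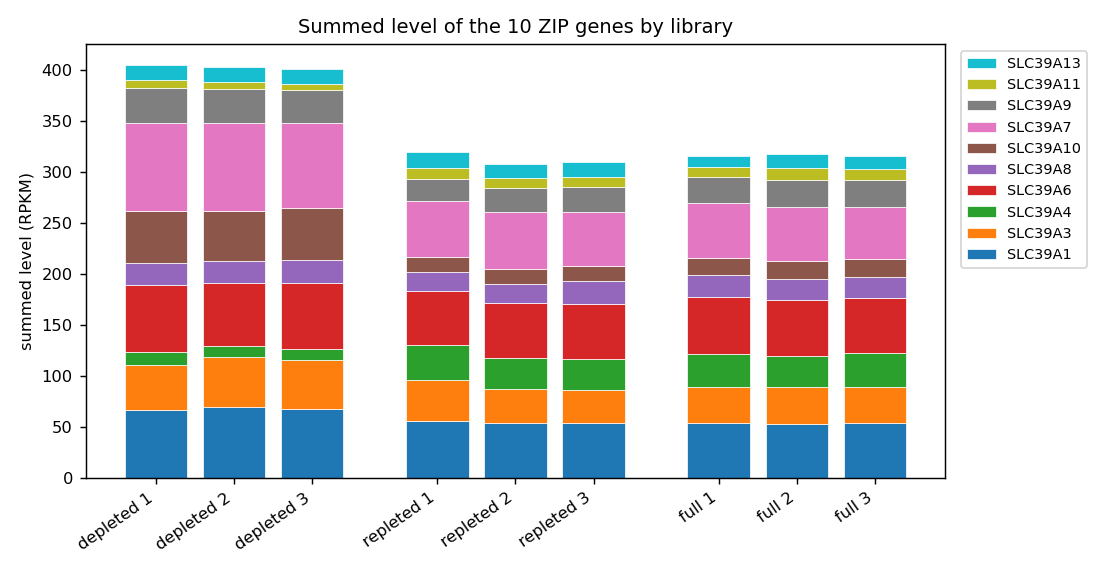
Stacked level (RPKM) of the 10 ZIP genes in each of the 9 libraries, with bars from 0 and depleted, repleted and full libraries from left to right. The depleted bars reach 401 to 405 RPKM and the others 308 to 319 RPKM, and the segment of SLC39A10 widens while that of SLC39A4 narrows.

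The genes whose pattern over the 9 libraries was most like that of SLC39A10 were PYROXD1, an oxidoreductase, PLEKHH3, and SAT1, which acetylates polyamines. Likeness was the Euclidean distance between centred log2 values, here 0.195, 0.272 and 0.284, among 10334 tested genes whose mean was 5 RPKM or more. PYROXD1 had 26.4 ± 1.28 RPKM in depleted, 7.44 ± 0.21 RPKM in repleted and 8.26 ± 0.128 RPKM in full medium (SD, n = 3 each). For SLC39A4 they were SOWAHA, TIMM21, a factor of mitochondrial protein import, and SAPCD2, at distances of 0.146, 0.181 and 0.193. SAPCD2 had 6.77 ± 0.64 RPKM in depleted, 20.1 ± 0.315 RPKM in repleted and 19.8 ± 0.7 RPKM in full medium.

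Of the other 4 SLC39 genes, 1 passed the filter on low values. This was SLC39A14, which carries zinc, manganese and iron, with 33.3, 36.4 and 39.5 RPKM in depleted, 34.6, 30.2 and 35 RPKM in repleted and 34, 35.2 and 31.3 RPKM in full libraries. The groups overlapped, and it was not called (log2 0.12 against full medium, 95% interval -0.06 to 0.29, limma adjusted p = 0.229). SLC39A2, SLC39A5 and SLC39A12 had at most 0.32 RPKM in any library.

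The ZnT transporters, which as a family are known for moving zinc out of the cytosol, gave counts with no clear distance from the background. Of 10 listed, 9 were tested, and in depleted against repleted medium 2 were higher and 3 lower, near the 29.5% and 31.2% of all genes. Against full medium 2 were higher and 5 lower, where 29.8% and 31.2% of all genes were called, but over the 15 alternative settings these counts ran from 1 to 2 and from 2 to 5. The lower count was 3 without full replicate 3 or without any 1 of the 3 depleted replicates, 3 with median centring, and 2 with no filter on low values. SLC30A2, a transporter of vesicles, had the largest change (log2 -1.28, limma adjusted p = 4.72e-05), but with 0.06, 0.17 and 0.04 RPKM in depleted, 0.92, 0.98 and 1.2 RPKM in repleted and 1.59, 1.98 and 1.41 RPKM in full libraries it passed the filter on low values through the media with zinc alone. SLC30A1, the exporter of the plasma membrane, had 7.14, 6.62 and 7.04 RPKM in depleted, 11.2, 11.6 and 12.4 RPKM in repleted and 16, 16.5 and 16.8 RPKM in full libraries, so that each group stood apart. It fell by 1.14 on the log2 scale in depleted against full medium (limma adjusted p = 3.1e-07), whereas SLC30A7, a Golgi transporter, rose (log2 0.49, limma adjusted p = 0.00307). The others called were SLC30A3 (log2 -0.48), SLC30A10 (log2 -0.40) and SLC30A5 (log2 -0.20), which were lower, and SLC30A6 (log2 0.21), which was higher, with limma adjusted p between 0.018 and 0.0462. Depleted and full libraries overlapped for SLC30A6 and for SLC30A10. The latter had 0.99, 1.58 and 0.88 RPKM in depleted and 1.53, 1.99 and 1.96 RPKM in full libraries.

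Of 12 metallothioneins and MTF1 listed together, 4 were tested, of which 3 were lower and 1 higher in both depleted comparisons. Over all genes tested, 31.2% were lower and 29.8% higher against full medium, and 31.2% and 29.5% against repleted medium. MT2A, whose window is printed above, had 6.57, 5.72 and 7.08 RPKM in depleted libraries against 188, 201 and 184 RPKM in full libraries. MT1X had 1.71, 2.48 and 1.16 RPKM in depleted libraries against 152, 163 and 139 RPKM in full libraries, and the log2 differences were -5.80 for MT1X, -4.69 for MT2A and -4.30 for MT1F, with limma adjusted p of at most 2.37e-08. All of these depleted libraries lay far below the full ones. MTF1 itself had 6.87, 6.06 and 5.09 RPKM in depleted, 3.46, 3.78 and 3.53 RPKM in repleted and 3.98, 3.54 and 4.52 RPKM in full libraries. The depleted libraries were highest, and MTF1 rose by 0.48 on the log2 scale against full (limma adjusted p = 0.00495) and by 0.6 against repleted medium (limma adjusted p = 0.0013).

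Of 12 partners, regulators and other zinc carriers, 11 were tested, and 4 were higher and 4 lower in depleted against full medium (4 to 5 and 3 to 4 over the alternatives), near the 29.8% and 31.2% of all genes. NCAM1, an adhesion protein that binds the complex of ZIP6 and ZIP10, had 2.1, 2.51 and 2.19 RPKM in depleted, 9.98, 8.67 and 8.39 RPKM in repleted and 8.22, 9.42 and 8.48 RPKM in full libraries. It was lower in every depleted library (log2 -1.57 against full medium, SE 0.09, limma adjusted p = 5.71e-07), opposite to SLC39A10. PRNP, the prion protein gene, was also lower (log2 -0.20, limma adjusted p = 0.0368). The other lower genes were TMEM163, a zinc transporter of vesicles (log2 -0.80), and the zinc finger gene ZNF658 (log2 -0.48). ZNF658 had 0.43, 0.5 and 0.56 RPKM in depleted libraries against 1.27, 1.13 and 0.88 RPKM in full libraries, so it passed the filter on low values through the media with zinc alone, and with no filter 3 genes of this list were lower. Higher were MCOLN1, a cation channel of lysosomes (log2 0.71), KLF4, a transcription factor that acts on Zip4 in the mouse (log2 0.65), the channel kinase TRPM7 (log2 0.51) and STAT3 (log2 0.32). For all 6 the limma adjusted p lay between 0.000166 and 0.0107.

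**Figure D4:**
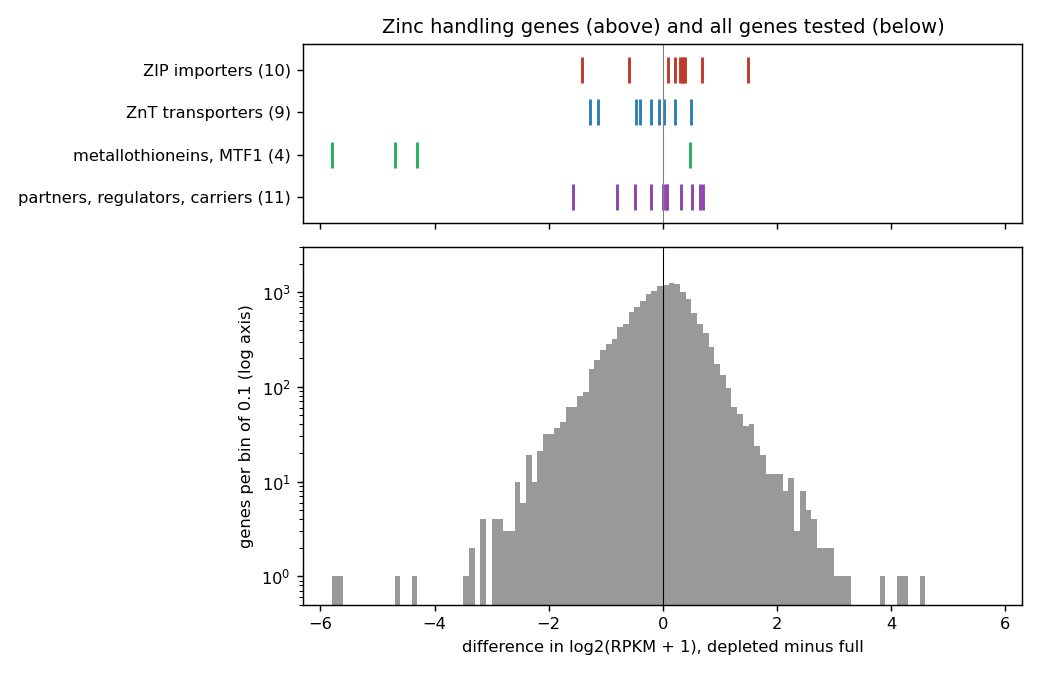
Difference in log2(RPKM + 1), depleted minus full, of the tested genes of 4 groups (upper panel, a mark per gene) and of all 15774 genes tested (lower panel, genes per bin of 0.1, log axis). The ZIP genes spread from -1.42 to 1.48, the ZnT genes from -1.28 (SLC30A2, under 1 RPKM in every depleted library) to 0.49, and 3 metallothioneins lie at -4.3 or below.

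The values of 4 ZIP genes may include reads of a gene on the opposite strand, since no source used here states that counting used strand. In GENCODE release 29 on GRCh38, SLC39A1 shares 280 exonic bases (8.3% of its own) with CREB3L4, SLC39A7 shares 244 (8.6%) with RXRB, SLC39A9 shares 373 (5.2%) with ERH, and SLC39A4 shares 180 (3.6%) with the antisense gene AC233992.3. RXRB averaged 19.7 RPKM in depleted, 24.8 RPKM in repleted and 22.3 RPKM in full medium, lowest where SLC39A7 was highest. ERH averaged 244 RPKM in depleted, 233 RPKM in repleted and 239 RPKM in full medium. It lay above SLC39A9 in each medium, and both were highest in depleted and lowest in repleted medium. CREB3L4 averaged 10.7 RPKM in depleted, 8.22 RPKM in repleted and 7.7 RPKM in full medium, below SLC39A1 in each. Like SLC39A1, it was highest in depleted and lowest in full medium. On the same strand, SLC39A1 shares 60.8% of its exonic bases with AL358472.7, SLC39A3 9.6% with AC006538.2 and SLC39A8 3% with AC098487.1, for which no value was matched by symbol. The part of these overlaps in the results was not tested.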

How the data were processed

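RNA of 9 libraries, 3 per medium, was analysed from a table in which the authors deposited log2 of RPKM plus 1 per gene, per the file headers and the values (lowest value 0, and 100% multiples of 0.01 RPKM after undoing the log). Per the submitters' processing notes, the genome was hg19 (GRCh37) and the tools named are bedtools, BWA (0.7.12-r1039), RSEM (1.2.6) and Bowtie (1.0.1), with no role or order given. There were 0 columns of unknown sample, and the 20320 blank rows were left out. Since the table holds no counts, depth was estimated from the smallest steps of low values of genes of 100 to 500 nucleotides effective length, of which 56.5% to 64.3% were whole reads within 0.1 read. No interval rests on this estimate.

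limma 3.58.1 (R 4.3.3, variance trend) was fitted to all 9 libraries with 1 mean per medium, over the 15774 genes that reached 1 RPKM in 3 or more libraries, and was tested on simulated data. Genes were named as follows: all members, other SLC39 genes, the 3 nearest patterns of SLC39A10 and SLC39A4, and up to 6 called genes per list by size of the change in depleted against full medium. SLC30A5, PRNP, STAT3, the CK2 genes and the cell line markers fall outside this rule and were named after their values were seen. The members and lists were chosen with earlier results of these data known. Each limma p-value sets a difference between media against the spread of libraries within media. It speaks only for replicate libraries of 1 cell line. The correlation of residuals was -0.0144 to 0.0726 for libraries with the same replicate number and -0.0609 to 0.0416 for others, so the numbers were not taken to pair the samples. The 15 alternatives were each of the 9 libraries left out, median centring, quantile normalization, a replicate block, a fit of the 6 compared libraries alone, no filter on low values, and 0.1 in place of 1 as pseudocount. For the pathway lists they were added after seeing the data. Expression values rest on hg19 and promoter windows on GRCh38.p14, so these were joined by symbol only. Figures used matplotlib 3.10.9.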

Additional observations from a re-analysis of the deposited data

How the results depend on the processing

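The counts of ZIP genes in depleted against full medium (7 higher, 2 lower) were the same under each of the 15 alternatives, the 9 that leave out 1 library included, as were those in repleted against full medium (0 and 0). In depleted against repleted medium, 2 stayed the count of lower genes and the count of higher genes was 6 to 7, the change being SLC39A8. With the replicate block the counts were 7 higher and 2 lower, 6 and 2, and 0 and 0 in the 3 comparisons, and it changed no call of a ZIP gene. Of 150 values per comparison, 150, 148 and 143 kept their direction and side of the threshold. In several settings the log2 difference could not move, so only the calls could change. These were no filter on low values, the replicate block, the 6 compared libraries alone, and a library of the third medium left out. Near 0, the sign turned in repleted against full medium for SLC39A11 (-0.0762 to 0.0445 over the libraries left out, with 0.0445 without full replicate 2, 1e-04 without full replicate 3 or repleted replicate 1), SLC39A4 (-0.0684 to 0.0154, with 0.0143 without full replicate 3, 0.0154 without repleted replicate 3) and SLC39A3 (-0.1241 to 0.035, with 0.0151 without repleted replicate 2, 0.035 without repleted replicate 3). The call of SLC39A13 against full medium was the least firm, with a limma adjusted p of up to 0.0489 (0.00349 to 0.0489 over the alternatives). Over all genes, repleted against full medium called 1 to 9 genes. Median centring moved the median of all genes to 0.05 and quantile normalization to 0.04 in depleted against full medium. SLC39A4 and SLC39A11 had the fewest estimated reads of the 10 genes, 140 to 510 and 240 to 510 per library.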
